A study of Mus musculus with 7 samples.

Results

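Genes of the immediate-early response, *Fos*, *Fosb*, *Jun*, *Junb*, *Egr1*, *Atf3*, *Ier2*, *Btg2*, *Apold1* and *Klf4*, were taken by symbol (10 in all) from the deposited expression table of tibialis anterior (TA) muscle, and 9 of the 10 were found among its 12239 genes. *Fosb* was not analysed here. The symbols were picked by name, without a threshold on any measured value, but with earlier results of these data known. The muscles came from male mice of 5 to 6 months, either wild-type FVBN animals (WT, 4 libraries) or C2-/- animals (3 libraries), in which a neomycin cassette flanked by LoxP sites replaced most of the coding exons of *Mybpc2*, the gene of fast myosin-binding protein C. The age is that of the labels, and the study's methods begin the range of the young TA muscles earlier. The allele is carried in the germline with no Cre driver named in the labels, and the study's methods place it on the FVBN background that both groups share. The series text speaks of 4 animals in each group, whereas sample titles exist for 4 WT and 3 C2-/- libraries. The labels give 1 library per title and do not state litter, collection day or the time between death and freezing, so the p-values below measure the spread between these libraries only.

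Immediate-early genes are transcribed within minutes of a stimulus from factors that are already present in the cell, without new protein synthesis, and their mRNAs are short-lived. In skeletal muscle they are known to respond to contraction, stretch, injury and the handling of tissue at dissection. Fos and Jun proteins pair through their leucine zippers to form AP-1, *Egr1* and *Klf4* encode zinc-finger transcription factors, *Atf3* encodes a bZIP factor of the stress response, and *Btg2* encodes an antiproliferative protein that promotes removal of mRNA poly(A) tails. *Ier2* encodes a small nuclear protein, and *Apold1* encodes an endothelial early-response protein.

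Proteins of the CREB/ATF, SRF and AP-1 families are known regulators of immediate-early transcription. RefSeq (GRCm38.p6) gave a promoter, from 250 bases before to 50 after the start, for 8 of the 10 genes, and the entries for *Egr1* and *Ier2* were not matched. The sequences of *Fos* (chr12:85473640-85473939, plus strand), *Junb* (chr8:84978699-84978998, minus strand), *Btg2* (chr1:134079106-134079405, minus strand) and *Jun* (chr4:95052173-95052472, minus strand) are shown because *Fos*, *Junb* and *Btg2* varied between libraries whereas *Jun* was nearly flat. Each runs 5′ to 3′ on the strand of the gene, and capitals mark the CREB/ATF half-site TGACG, the full site TGACGTCA and the letters TATAAA.
Fos: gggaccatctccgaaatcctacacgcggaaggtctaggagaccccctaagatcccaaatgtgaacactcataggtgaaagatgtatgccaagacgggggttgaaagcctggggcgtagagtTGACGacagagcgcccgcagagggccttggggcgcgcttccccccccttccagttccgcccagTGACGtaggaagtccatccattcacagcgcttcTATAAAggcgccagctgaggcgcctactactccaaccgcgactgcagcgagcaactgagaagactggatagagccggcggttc
Junb: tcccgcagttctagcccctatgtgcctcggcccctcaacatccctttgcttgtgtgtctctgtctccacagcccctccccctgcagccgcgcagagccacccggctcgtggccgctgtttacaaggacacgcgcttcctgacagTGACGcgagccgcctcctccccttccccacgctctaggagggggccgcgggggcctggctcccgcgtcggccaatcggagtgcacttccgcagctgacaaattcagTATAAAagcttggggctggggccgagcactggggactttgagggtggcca
Btg2: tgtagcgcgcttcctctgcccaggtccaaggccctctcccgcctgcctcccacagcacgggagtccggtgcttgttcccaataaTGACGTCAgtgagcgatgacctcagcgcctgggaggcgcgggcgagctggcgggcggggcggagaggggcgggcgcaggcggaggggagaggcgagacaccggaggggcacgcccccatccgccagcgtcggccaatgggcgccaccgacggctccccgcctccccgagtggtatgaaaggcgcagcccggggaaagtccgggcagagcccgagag
Jun: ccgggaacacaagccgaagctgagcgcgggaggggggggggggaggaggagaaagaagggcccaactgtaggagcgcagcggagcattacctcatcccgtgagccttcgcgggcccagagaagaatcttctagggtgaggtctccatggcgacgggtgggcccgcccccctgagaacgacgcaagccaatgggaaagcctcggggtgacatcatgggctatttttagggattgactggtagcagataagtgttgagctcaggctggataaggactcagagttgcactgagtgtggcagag
On either strand, TGACG was found in 7 of the 8 promoters, all but that of *Jun*, whereas 20.8% of 32851 mouse promoters of the same length held it. In *Fos* the half-site began at -129 and at -66 from the start, and in *Junb* at -106. *Klf4*, which also varied little between libraries, held it at -232. Only exact letters were searched, so near matches in *Jun* or elsewhere were not counted. The full TGACGTCA, which contains the half-site, was found in *Btg2* alone, at -166, and in 1.79% of all promoters. TATAAA was found in 3 of the 8, those of *Fos* (at -33), *Junb* (at 1, the start itself) and *Apold1* (at -32), and in 13.6% of all promoters. No CArG box and no AP-1 site (TGACTCA or TGAGTCA) lay in any of the 8 windows, compared with 1.63% and 5.20% of all promoters. These are matches of letters and not measured binding sites.

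The libraries differed in depth, with 14929214 to 15464499 reads in the table for WT replicates 1 to 3, 4683853 for WT replicate 4 and 2613277 to 4917936 for the C2-/- libraries. A gene with 3 reads, taken as the floor, stood at 0.195 to 1.12 CPM (counts per 1e6 reads in that library), and such floors and the intervals below cover counting error only. *Mybpc2* held 25665 to 110159 reads in the WT and 3 to 8 reads in the C2-/- libraries, a log2 change of -11.82 (SE 0.41), so each library carried the level of its label. The markers of fast muscle fibre were high in all libraries and summed to 199342 to 233133 CPM in WT and 103708 to 126015 CPM in C2-/-. By limma, 45.2% of the 12239 genes were past the threshold (adjusted p under 0.05 and a change above 1.5-fold), with 20.2% higher and 25.0% lower in C2-/-. The median log2 change of all genes was -0.14, and 0.02 after each library was centred on its median.

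The question put to these genes was whether they differed between C2-/- and WT muscle, and whether they rose and fell together from library to library. *Ier2* and *Junb* were lower in C2-/-, and the other 7 did not pass the threshold. After correction for GC content neither passed, and *Jun* alone did, as higher, so 1 of 9 stood beside 12.3% of all genes. Before it, the 2 of 9 (22.2%) past the threshold were both lower, beside 25.0% of all genes, so the share is near the background. By limma, 0 of the 9 passed when WT replicate 3 was left out (2 at an unadjusted p under 0.05), beside 33.5% of all genes. Values are log2 CPM after TMM scaling, with 0.5 reads added by the authors, and changes are C2-/- minus WT.

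Among the AP-1 subunits, *Fos* (chr12:85473890-85477273, plus strand) spanned a wide range within each genotype. Its log2 values were 2.30, 1.70, 4.03 and 0.03 in WT replicates 1 to 4 and 1.85, 0.39 and 3.60 in C2-/- replicates 1 to 3. The groups overlapped, and the highest and the lowest library were both WT. These values came from 75, 48, 250 and 4 reads in WT and from 10, 3 and 58 reads in C2-/-. The 3 reads of C2-/- replicate 2 correspond to 1.12 CPM with an exact Poisson 95% interval of 0.232 to 3.28 CPM. The difference between C2-/- replicates 2 and 3 was 9.24-fold on values with the added 0.5 reads, and that between WT replicates 3 and 4 was 15.9-fold. The mean was 2.01 ± 1.65 (SD, n = 4) in WT and 1.95 ± 1.61 (SD, n = 3) in C2-/-, with C2-/- minus WT at -0.07 (SE 0.95, limma adjusted p = 0.958). The sign depended on single libraries, with 0.60 when WT replicate 3 was left out.

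*Junb*, which encodes a Jun protein that can oppose c-Jun (chr8:84974484-84978718, minus strand), was lower in C2-/-. It stood on the log2 scale at 3.35, 3.49, 4.88 and 1.51 in WT replicates 1 to 4 and 1.16, -2.42 and 1.59 in C2-/- replicates 1 to 3. WT replicate 4 fell below C2-/- replicate 3, so the groups overlapped, and the other WT libraries were above all C2-/- libraries. The reads behind these values were 156, 168, 451 and 12 in WT and 6, 0 and 14 in C2-/-. Between groups the change was -3.20 (SE 1.02, limma adjusted p = 0.0265). Without WT replicate 3 the log2 change was -2.67 (limma adjusted p = 0.0727), and *Junb* also missed the threshold without WT replicate 1 (-3.18), WT replicate 2 (-3.14) or C2-/- replicate 2 (-1.93), whose value of -2.42 is that of 0 reads. After GC correction the change was -1.28 (limma adjusted p = 0.315). Pooled over libraries, *Junb* CPM was 8.18-fold higher in WT, with an exact 95% counting interval of 5.26 to 13.5, and 5.04-fold (3.21 to 8.36) without WT replicate 3, which held 451 of the 787 WT reads. With 0 reads in C2-/- replicate 2, a level of up to 1.12 CPM there could not be seen at this depth. Reads of *Prdx2*, which overlaps *Junb* on the opposite strand, cannot be told apart from it if strand was not used, and the use of strand in counting is not given in the sources used here.

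*Jun* (chr4:95049034-95052222, minus strand) was the most abundant of the 9 genes per length and the most even. Across libraries it was measured at 6.65, 6.58, 6.61 and 6.76 in WT replicates 1 to 4 and 6.50, 6.32 and 6.42 in C2-/- replicates 1 to 3. Every C2-/- library lay below every WT library, by a small margin, and *Jun* did not follow *Fos* or *Junb* in WT replicate 3. After GC correction the order turned, with 6.84 to 7.22 in C2-/- above 5.99 to 6.55 in WT. From 213 to 1536 reads were behind each value. C2-/- minus WT came to -0.24 (SE 0.15, limma adjusted p = 0.209), which did not pass the threshold. The groups also failed to overlap in 49.3% of all genes. An antisense gene, *Junos*, overlaps *Jun*.

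*Atf3* (chr1:191170296-191218039, minus strand) was the least abundant member per length. Its log2 values were 1.83, 1.03, 1.88 and -0.81 in WT replicates 1 to 4 and -0.22, 0.75 and -3.27 in C2-/- replicates 1 to 3. The C2-/- libraries held 2, 4 and 0 reads and WT replicate 4 held 2, so these 4 libraries lay near the floor. WT replicates 1 to 3, with 54, 30 and 56 reads, were above them. The group means differed by -1.89 (SE 1.05, limma adjusted p = 0.158), by -0.71 without C2-/- replicate 3 and its 0 reads, and by -2.73 without C2-/- replicate 2.

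*Egr1*, the zinc-finger factor induced alongside *Fos*, had the widest spread among the WT libraries of the 9 genes. It stood on the log2 scale at 4.04, 3.59, 6.68 and 2.59 in WT replicates 1 to 4 and 3.34, 0.39 and 3.07 in C2-/- replicates 1 to 3. WT replicate 3 was the highest, with 1576 reads and 103 CPM (95% interval 97.6 to 108 CPM), and was 6.25-fold above WT replicate 1 and 8.53-fold above WT replicate 2. WT replicates 1 and 2 were also above all C2-/- libraries, and WT replicate 4 fell among them. The WT libraries ran from 5.92 to 103 CPM. Between groups the change was -1.96 (SE 0.95, limma adjusted p = 0.112), and -1.14 (limma adjusted p = 0.260) without WT replicate 3 and -1.02 without C2-/- replicate 2.

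*Klf4*, a zinc-finger factor that is also prominent in endothelium (chr4:55527143-55532466, minus strand), was among the steady members. Across libraries it was measured at 4.66, 4.42, 4.52 and 4.20 in WT replicates 1 to 4 and 3.87, 4.27 and 4.13 in C2-/- replicates 1 to 3. Only WT replicate 4 lay within the C2-/- range, below C2-/- replicate 2. C2-/- minus WT came to -0.36 (SE 0.24, limma adjusted p = 0.229).

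*Ier2* (chr8:84661331-84662852, minus strand) was lower in C2-/-, with no overlap. Its log2 values were 3.10, 2.66, 4.25 and 1.39 in WT replicates 1 to 4 and 0.92, -0.10 and 0.98 in C2-/- replicates 1 to 3. The lowest WT library, replicate 4, lay just above the highest C2-/- libraries, replicates 1 and 3. The reads were 131, 94, 291 and 11 in WT and 5, 2 and 9 in C2-/-. The group means differed by -2.25 (SE 0.66, limma adjusted p = 0.0191). Without WT replicate 3 it was -1.78 (limma adjusted p = 0.0652), and *Ier2* also missed the threshold without WT replicate 1 (-2.16) or C2-/- replicate 2 (-1.90). After GC correction the change was -0.48 (limma adjusted p = 0.571). The pooled CPM was 6.85-fold higher in WT, with an exact 95% counting interval of 4.18 to 12.1, and 4.42-fold (2.67 to 7.87) without WT replicate 3, which held 291 of the 527 WT reads.

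*Btg2*, a member of the BTG/TOB family (chr1:134075170-134079120, minus strand), was highest in WT replicate 3. It stood on the log2 scale at 4.59, 3.66, 5.52 and 3.88 in WT replicates 1 to 4 and 3.84, 3.77 and 4.54 in C2-/- replicates 1 to 3. C2-/- replicate 3 lay just below WT replicate 1, and the lowest library was WT replicate 2, so the groups overlapped. Between groups the change was -0.36 (SE 0.43, limma adjusted p = 0.507), and 0.01 without WT replicate 3.

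*Apold1* (chr6:134981718-134986836, plus strand) showed the same library order as *Fos* in the C2-/- group. Across libraries it was measured at 2.86, 1.33, 3.25 and 0.32 in WT replicates 1 to 4 and 1.55, 1.04 and 3.55 in C2-/- replicates 1 to 3. The reads were 111, 37, 146 and 5 in WT and 8, 5 and 56 in C2-/-. C2-/- replicate 3 was the highest of the 7 libraries and WT replicate 4 the lowest. C2-/- minus WT came to 0.11 (SE 0.82, limma adjusted p = 0.925), the only rise in sign among the 9.

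**Figure D1:**
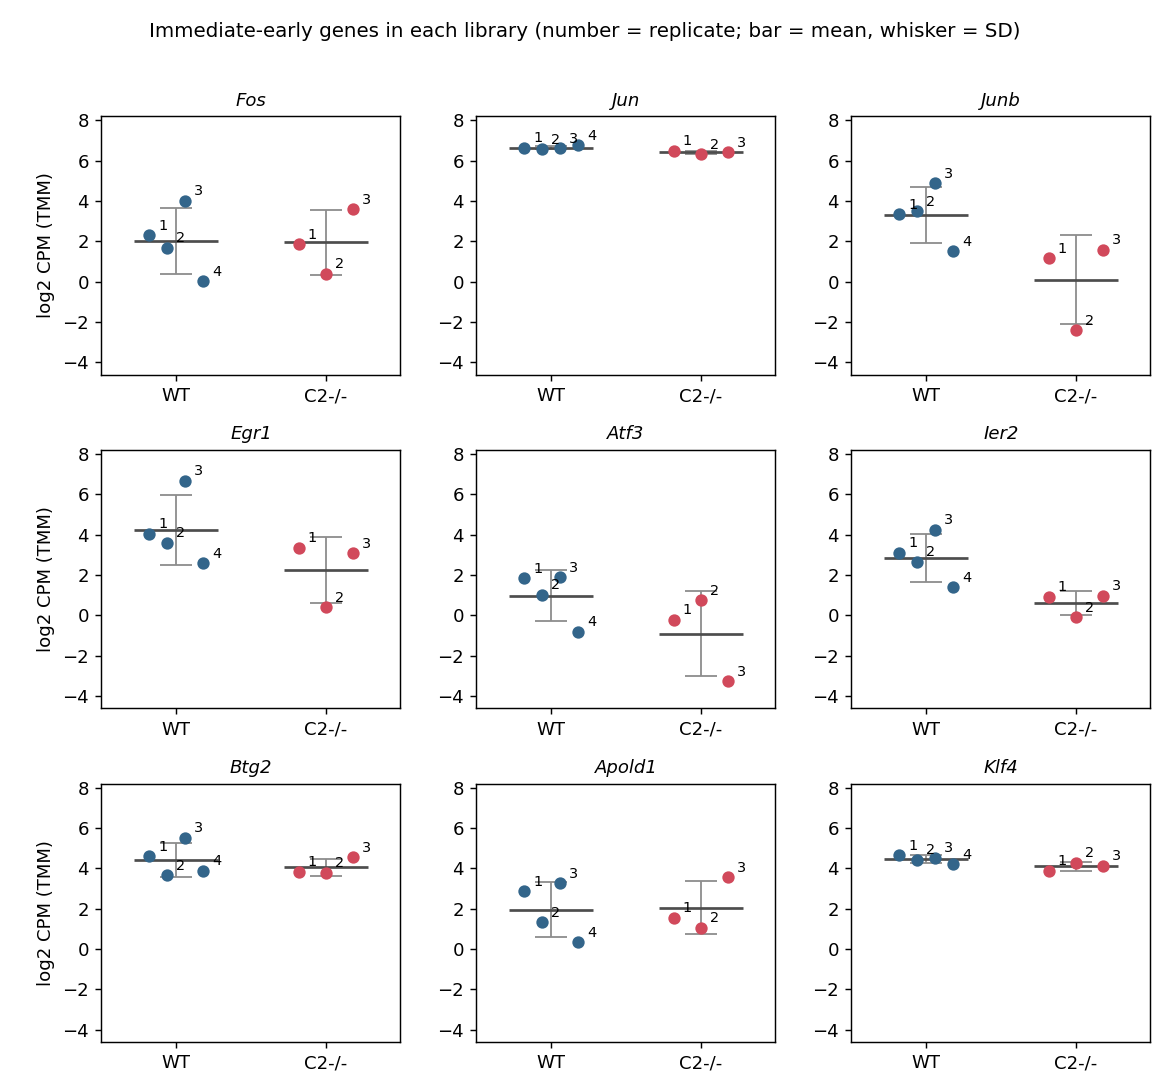
The log2 value of each of the 9 genes in each of the 7 libraries, with the WT and C2-/- libraries in separate colours, a bar at each group mean and a whisker of 1 SD. *Jun* and *Klf4* are tight within groups, whereas *Egr1* in WT runs from 2.59 to 6.68 with WT replicate 3 on top.

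Per kilobase of transcript, the WT level was 31.5 ± 1.71 CPM/kb for *Jun*, 8.83 ± 5.52 for *Btg2*, 7.64 ± 10.2 for *Egr1*, 7.39 ± 6.25 for *Junb*, 7.23 ± 0.97 for *Klf4*, 5.96 ± 4.63 for *Ier2*, 2.998 ± 3.24 for *Fos*, 1.43 ± 1.10 for *Apold1* and 1.21 ± 0.76 for *Atf3* (SD, n = 4). *Jun* stood above the rest by more than the spread, whereas neighbours in the order below it differed by less than the larger of their SDs. In C2-/- the level was 26.7 ± 1.64 CPM/kb for *Jun*, 6.17 ± 1.98 for *Btg2*, 5.60 ± 0.78 for *Klf4* and 0.37 ± 0.38 for *Atf3* (SD, n = 3).

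Of the 9 genes, 6 varied together between libraries of the same genotype: the cosine between their departures from the group means and the median departure of all 9 was 0.82 to 0.99, whereas it was 0.43 for *Klf4*, 0.24 for *Atf3* and -0.34 for *Jun*. The genes compared enter that median themselves. The difference of a library from the mean of the other libraries of its group, as a median over the 9 genes, was 0.28, -0.25, 1.75 and -2.16 on the log2 scale in WT replicates 1 to 4 and 0.13, -1.04 and 0.74 in C2-/- replicates 1 to 3. The median of all genes stayed between -0.19 and 0.07. By this median WT replicate 3 was high and WT replicate 4 low, and C2-/- replicate 3 was high and replicate 2 low. After GC correction the medians were 1.58 and -1.75 in WT replicates 3 and 4 and -0.31, -0.44 and 0.73 in C2-/- replicates 1 to 3. Over all 9 genes the corrected replicates 1 and 2 thus lay close together. Leaving out *Jun* and *Klf4*, highest in replicate 2 after correction (7.22 and 5.04), gave medians of -0.11, -1.41 and 1.21. Those 7 genes were picked on these same values, so the low replicate 2 among them rests on that choice. *Jun* was instead highest in WT replicate 4, and *Atf3* went the other way in C2-/-, where replicate 2 was its highest and replicate 3 its lowest library, on 0 to 4 reads. The same medians over the 47 other immediate-early genes in the table were 0.17, -0.27, 0.15 and 0.02 in WT replicates 1 to 4 and -0.17, -0.33 and 0.45 in C2-/- replicates 1 to 3, and the difference between the lists was not tested. C2-/- replicate 3 held the highest C2-/- value in 31 of them (66.0%, beside 33.0% of all genes), WT replicate 3 the highest WT value in 14 (29.8%, beside 25.5%) and WT replicate 4 the lowest in 17 (36.2%, beside 51.6%).

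Of the 9 genes, 7 had their highest WT value in replicate 3, all but *Jun* and *Klf4*, whereas 25.5% of all genes did. The lowest WT value fell in replicate 4 in 7 genes, all but *Jun* and *Btg2*, beside 51.6% of all genes. In C2-/-, replicate 2 was lowest in 7 genes, all but *Atf3* and *Klf4*, beside 37.9% of all genes, and replicate 3 was highest in 5, beside 33.0%. Genes are not independent replicates, so these shares describe the libraries. WT replicate 3 was of the same depth as WT replicates 1 and 2, and its CPM over theirs was 3.33 and 5.07 for *Fos*, 2.89 and 2.62 for *Junb*, 2.22 and 3.02 for *Ier2*, 1.90 and 3.62 for *Btg2* and 1.31 and 3.84 for *Apold1*. *Atf3*, at 1.04 and 1.82, was highest there on 56 reads against 54 in WT replicate 1. For *Jun* the same ratios were 0.97 and 1.02 and for *Klf4* 0.91 and 1.08.

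**Figure D2:**
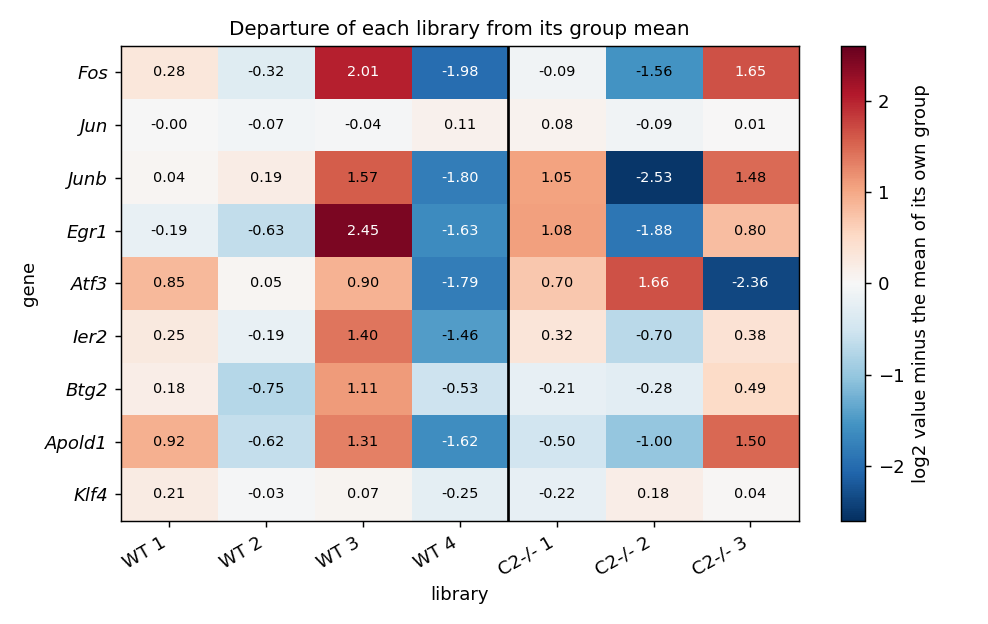
Departure of each library from the mean of its group for each of the 9 genes, on the log2 scale. WT replicate 3 lies above its group in 7 genes as the highest library and WT replicate 4 lies lowest in 7, whereas *Jun* and *Klf4* stay near 0.

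The spread itself set these genes beside others. The SD over the 4 WT libraries had a median of 1.26 over the 9 genes and 0.32 over all genes, and in C2-/- the medians were 1.32 and 0.47. *Egr1* was more variable in WT than 99.3% of all genes, *Fos* than 99.0% and *Junb* than 98.1%, whereas *Jun* was more variable than 4.0%. Counting error is larger at low levels, and each was also set beside genes within 0.5 of its mean WT log2 value, where the shares were 99.9% for *Egr1*, 99.4% for *Fos*, 99.1% for *Junb*, 93.8% for *Atf3* and 8.4% for *Jun*. Over WT replicates 1 to 3, which share a depth, the medians were 0.843 and 0.139.

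The profile over libraries, taken as the median departure of the members from their group means, was most like those of *Frat1* (cosine 0.983), *Lcmt2* (0.979), *Uqcrc1* (0.976), *Ramp1* (0.976) and *Coq10a* (0.973), of 10641 genes outside the list whose mean log2 value reached 1. The cosine was 0.990 for *Ier2* and 0.948 for *Fos*. Of the other immediate-early genes, 2 of 37 exceeded 0.8 (5.41%), beside 5.21% of all genes. The 7 libraries share their groups and depths, so the cosine describes the libraries and carries no test.

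**Figure D3:**
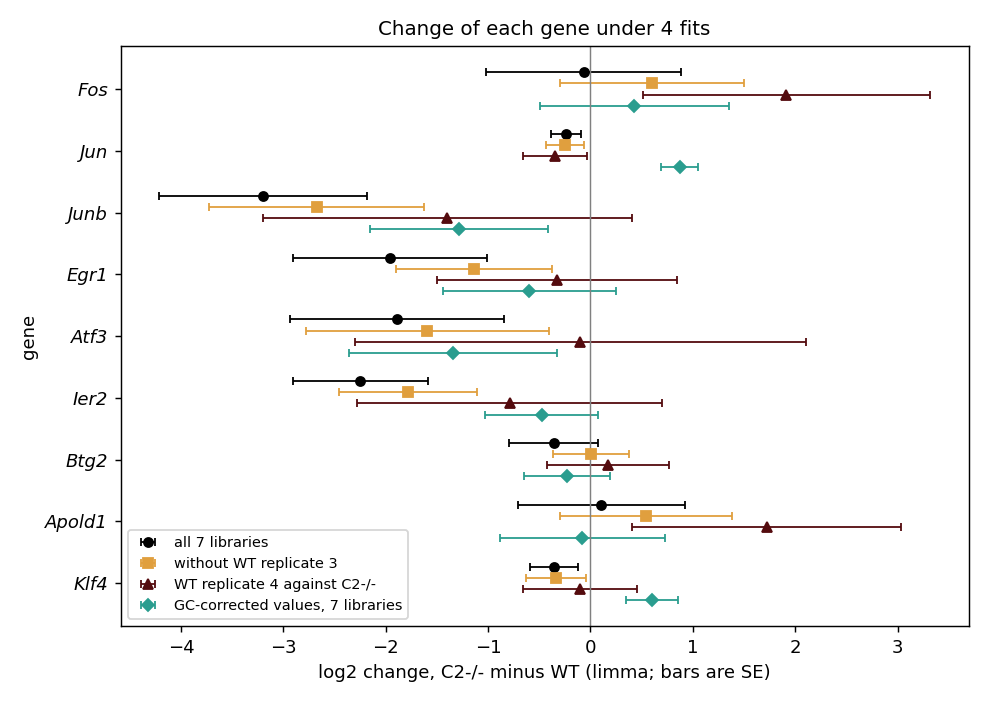
Log2 change (C2-/- minus WT) of each of the 9 genes with its standard error, from all 7 libraries, without WT replicate 3, with WT replicate 4 as the only WT library, and after GC correction. *Junb* and *Ier2* lie furthest below 0 with all libraries (-3.20 and -2.25) and nearer to 0 in the other fits.

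GC content moved with the changes. The transcripts of *Junb* and *Ier2* held 62.6% and 60.9% G and C, more than 98.8% and 97.2% of all genes, and the other 7 held 47.7% to 57.3%. When a smooth curve of log2 value on GC content was removed from each library, neither *Junb* (-1.28) nor *Ier2* (-0.48) passed the threshold. *Jun* then rose by 0.87 (limma adjusted p = 0.00975), the opposite sign to its uncorrected value, as did *Klf4*, which did not pass (0.60, limma adjusted p = 0.118). The 1 of 9 past the threshold as higher stood beside 12.3% of all genes. GC correction left 2509 genes of the whole table past the threshold with 59.6% of them higher, compared with 5528 and 44.7% before it. Depth moved with genotype as well. With WT replicate 4, the WT library nearest the C2-/- libraries in depth, as the only WT library, the change of *Junb* was -1.40, of *Ier2* -0.79 and of *Egr1* -0.33, and 0 of the 9 genes passed by limma (0 also at an unadjusted p under 0.05). Of all genes, 4.53% passed in that fit, so 0 of 9 is near the background. That lone WT library was assumed to vary as the C2-/- libraries do, and it was the lowest WT library in 7 of the 9 genes, so depth and genotype cannot be told apart here.

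Endothelial markers were considered because *Apold1* and *Klf4* are expressed in endothelium. All 12 were in the table, none at 0 reads in a library, and they summed to 538 to 797 CPM in WT and 377 to 500 CPM in C2-/-. Of these, 1 was higher and 6 lower in C2-/- (beside 20.2% and 25.0% of all genes), and 0 were higher and 1 lower after GC correction (beside 12.3% and 8.32%), with the median log2 change moving from -0.81 to -0.10. In WT replicate 3 the sum was the highest at 797 CPM, and 8 of the 12 markers had their highest WT value there. Smooth muscle and pericyte markers also followed that order, with 6 of 7 highest in WT replicate 3 (median difference from the other WT libraries 0.46) and 5 of 7 lowest in WT replicate 4 (-0.68). In C2-/- replicates 1 to 3 the medians were 0.12, 0.51 and -0.43 for smooth muscle and pericyte markers and 0.36, 0.03 and -0.30 for endothelial markers, beside 0.13, -1.04 and 0.74 for the 9 genes. By these medians both marker lists were lowest in replicate 3. The median of the 9 genes was highest there, with 5 of the 9 at their highest C2-/- value and *Atf3* at its lowest. Schwann cell markers had a median difference of 0.73 in WT replicate 3 and -0.22 in WT replicate 4, and the 3 adipocyte markers of -4.01 and 1.89. For the fibroblast, macrophage, satellite cell and fast fibre lists the medians lay between -0.22 and 0.25 in WT replicate 3 and between -0.70 and 0.43 in WT replicate 4. Their part in the values above was not tested, and fewer cells of a type cannot be told apart from less RNA per cell in whole muscle.

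**Figure D4:**
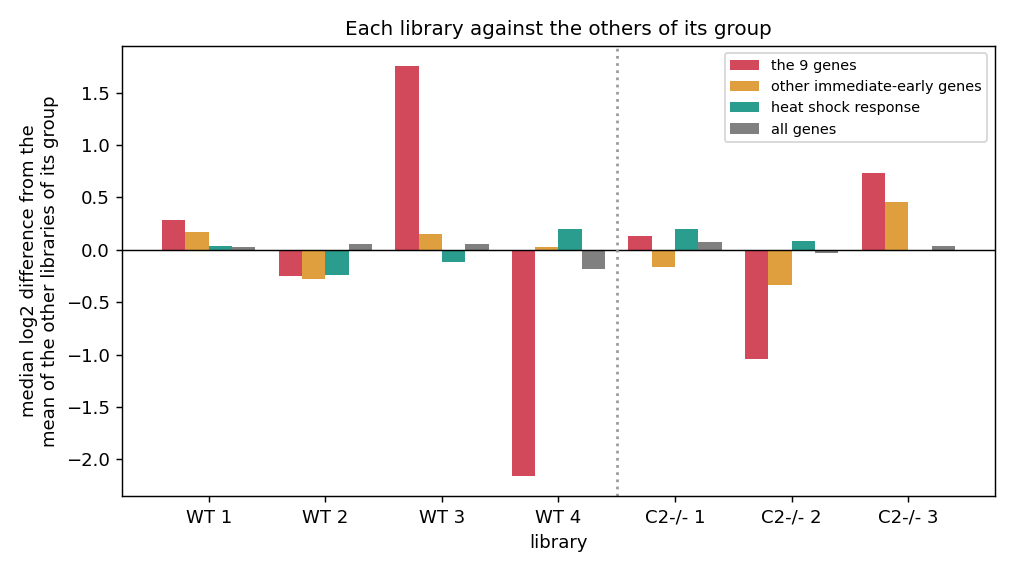
Median log2 difference of each library from the other libraries of its group, for the 9 genes, other immediate-early genes, the heat shock response and all genes. The 9 genes reach 1.75 in WT replicate 3 and -2.16 in WT replicate 4, whereas all genes lie between -0.19 and 0.07.

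Other immediate-early genes were then examined by list. Of 47 in the table, 5 rose and 11 fell in C2-/-, with a median log2 change of -0.28 (0.27 after GC correction, with 8 higher and 2 lower). For this and the lists that follow, the shares over all genes are 20.2% higher and 25.0% lower, and 12.3% higher and 8.32% lower after GC correction. *Nr4a1*, an orphan nuclear receptor induced by muscle activity, fell by 1.64 on the log2 scale (SE 0.33, limma adjusted p = 0.0035), with 7.46 to 7.89 in WT and 5.32 to 7.01 in C2-/-. After GC correction its change was -0.32 and did not pass. *Klf6* rose by 1.31, *Zfp36l1*, which speeds mRNA decay, by 1.45, and *Tob1*, a BTG/TOB relative, by 1.38. *Zfp36l1* and *Tob1* also passed after GC correction, whereas *Klf6* did not.

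Of those that fell, *Irf1*, an interferon-response factor, and *Midn* had log2 changes of -2.33 and -1.204. After GC correction *Irf1* still passed (-1.67), whereas *Midn* turned to 0.40 and did not pass. *Csrnp1* held 137 reads in WT and 1 in C2-/-, and its pooled CPM ratio of 28.5 has an exact 95% counting interval of 5.03 to 1133. Its log2 change was -3.69, and -2.38 after GC correction, where it still passed (limma adjusted p = 0.0366). The log2 changes of *Dusp1*, a MAP kinase phosphatase, *Zfp36* and *Klf2* were 0.01, -0.21 and -0.28, and none of these passed the threshold. After GC correction *Dusp1* (1.01) and *Klf2* (1.55) passed as higher. *Ier5* (-1.98), *Btg1* (-0.09), *Egr2* (-1.53) and *Egr3* (0.28) did not pass either. *Zfp36*, whose product destabilises AU-rich mRNAs, was 2.20 and 2.88 times as high in WT replicate 3 as in replicates 1 and 2, and *Dusp1* 1.61 and 1.52 times, whereas *Nr4a1* was 1.23 and 1.04 times as high. *Egr4*, *Dusp5* and *Ptgs2* were not analysed here.

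The bZIP partners of AP-1 counted 14 in the table, with 3 higher (beside 20.2% of all genes), 5 lower (beside 25.0%) and a median of -0.30 (0.37 after GC correction, with 3 higher and 0 lower, beside 12.3% and 8.32%). *Jund* fell by 1.28 on the log2 scale (SE 0.46, limma adjusted p = 0.0435), with a GC content of 67.1%, and *Fosl2* fell by 1.45. *Fosl1* had 57 reads in WT and 0 in every C2-/- library. Pooled over libraries it was at least 3.11-fold lower, by the lower end of an exact 95% counting interval. Against the highest floor of 1.12 CPM it was at least 1.05-fold lower. *Atf1*, *Atf2* and *Maf* rose by 0.93, 1.13 and 1.004, and *Mafg* fell by 0.64. After GC correction *Maf* alone of these 7 passed, and *Jund* (0.89) and *Mafg* (0.36) turned in sign.

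Of 30 upstream kinases and factors, which relay signals to such genes, 6 rose (beside 20.2% of all genes) and 16 fell (beside 25.0%), with a median of -0.78 (-0.09 after GC correction, with 2 higher and 2 lower, beside 12.3% and 8.32%). *Mapkapk2*, *Mapkapk3* and *Rps6ka2*, which encode kinases acting downstream of MAP kinases, fell (log2 changes of -1.68, -1.77 and -1.76), and *Mapkapk3* and *Rps6ka2* also passed after GC correction. *Crem* and *Mapk8* rose by 1.36 and 1.29, and neither passed after GC correction.

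The integrated stress response, to which *Atf3* belongs, had 0 higher and 2 lower of 13 (median 0.15), beside 20.2% and 25.0% of all genes. With median centring 3 were higher and 1 lower (beside 24.8% and 21.2% of all genes). With quantile normalization 2 were higher and 1 lower (beside 23.6% and 22.6%). *Chac1* fell by 1.65, and *Asns* held 3, 0 and 0 reads in C2-/-, a pooled ratio of 5.41 with a counting interval of 1.78 to 26.8. GC correction left 0 higher and 1 lower (median 0.07). Neither *Chac1* nor *Asns* passed then, where the change of *Chac1* was -0.27 and that of *Asns* was -2.83 (-2.65 before, limma adjusted p = 0.0553 after). The heat shock response had 3 higher and 1 lower of 12 (median 0.21), beside the same 20.2% and 25.0%, with *Hsp90aa1*, *Hspe1* and *Hsf2* up by 1.24, 1.92 and 1.43 and *Hsf1* down by 1.42. After GC correction the list held 3 higher and 0 lower (median 0.60), with *Hspe1* alone of these 4 among them (2.38), and *Hsf1* stood at 0.01. The deadenylation complex, with which *Btg2* acts, had 6 higher and 0 lower of 12, beside 20.2% and 25.0% of all genes, with a median of 0.65 beside -0.14 for all genes. Its deadenylase subunits *Cnot6*, *Cnot6l* and *Cnot7* rose by 1.53, 1.37 and 1.47, and none of these 3 passed after GC correction, which left 4 of the 12 higher and none lower (beside 12.3% and 8.32%). Over these 6 lists 58 of 128 genes (45.3%) were past the threshold, beside 45.2% of all genes. Of the 58, 23 were higher and 35 lower (39.7% higher), and the share was 51.8% after median centring and 80.0% after GC correction, beside 44.7%, 54.0% and 59.6% for all genes past the threshold.

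**Figure D5:**
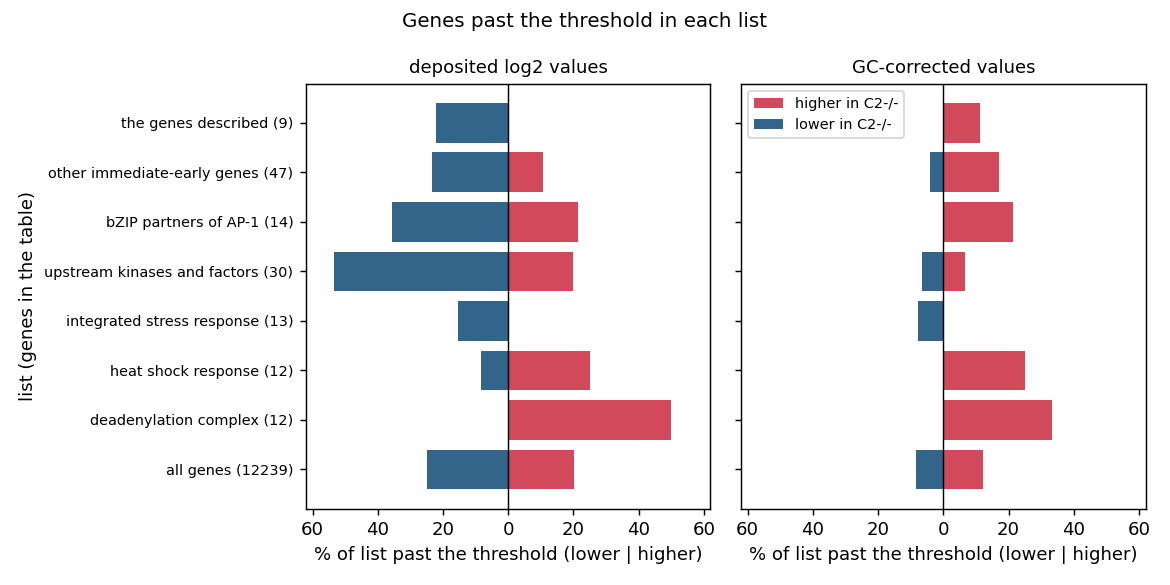
Share of each list past the threshold, lower to the left and higher to the right, from the deposited log2 values and after GC correction, with all genes in the bottom bar. The 9 genes hold 22.2% lower in the deposited values and none lower after GC correction.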

How the data were processed

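RNA from TA muscle was poly(A)-selected and sequenced as DNA nanoballs in 7 libraries (4 WT, 3 C2-/-), grouped by sample title. The authors aligned reads with HISAT to GRCm38.p6, counted them with featureCounts 1.5.2, applied TMM factors from edgeR and deposited log2 CPM values for 12239 genes. Each deposited log2 value equalled log2 of (reads + 0.5) over the effective library size times 1e6, from which whole reads were recovered (100.0% of values within 1e-4 of a whole read). A second deposited table held the authors' own comparison (fold changes, p-values and scores) and was not used. The filter on genes and the use of strand are not given in the sources used here.

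The deposited log2 values were fitted as they stood with limma 3.58.1 (lmFit, eBayes with trend; R 4.3.3), genotype only, two-sided, with Benjamini-Hochberg adjustment over all genes. Past the threshold meant adjusted p under 0.05 and above 1.5-fold. A log2 change understates the change of low genes, because 0.5 was added. GC content was matched for 12181 genes (99.5%), 363 through older symbols, and corrected with a natural spline of 5 degrees of freedom per library. Other settings were quantile normalization, median centring, 2 reads added, mean log2 filters, eBayes without trend, library weights, voom, replicate block, depth-matched WT and each library left out. The model script was tested on simulated data. Depth was 2613277 to 15464499 reads, and floors of 3 reads and 95% intervals cover counting error only.

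The members and lists were chosen with earlier results of these data known. Named genes were the members, up to 3 rising and 3 falling genes with the smallest adjusted p per list, and 12 family relatives; 1 gene that met the rule is not reported here. The lists were other immediate-early genes, AP-1 bZIP partners, upstream kinases and factors, integrated stress response, heat shock, deadenylation and markers of 10 cell types, given as values with no test.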

Additional observations from a re-analysis of the deposited data

Results flagged for a closer look

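Of 57 values tested in the 4 WT libraries, 7 stood apart from the rest of their group by Dixon's test, which chance gives in about 1 in 20 groups. None belonged to the 9 genes. *Dusp1* was high in WT replicate 3 at 6.70 on the log2 scale, beside 6.01 to 6.09 in the other WT libraries. *Csrnp1* was low in WT replicate 2 at 0.88. WT replicate 4 was high in *Mapk8* at 6.66, in *Asns* at 2.15 and in *Hspe1* at 7.21 on the log2 scale. The same library held 4683853 reads in the table, fewer than the other WT libraries, and had 75 genes at 0 reads, more than they had.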

How the results depend on the processing

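Of the 9 genes, 2 (*Junb* and *Ier2*) were past the threshold, beside 45.2% of all genes, and the count was also 2 with quantile normalization, median centring, 2 reads added, a filter at mean log2 1 and no fold-change minimum (46.0% to 48.0% of all genes), and 3 with library weights (*Atf3* added; 51.9%). It was 1 without the eBayes trend (42.7%), 0 with voom (2 at an unadjusted p under 0.05; 49.1%), 0 of 4 tested with a filter at mean log2 3, which removed both genes (54.8%), and 0 to 2 when 1 library was left out (33.5% to 50.1%). The changes lost without the trend and with voom were no smaller. *Junb* was -3.20 without the trend (limma adjusted p = 0.054). With voom *Junb* was -3.35 (limma adjusted p = 0.0567) and *Ier2* -2.47 (limma adjusted p = 0.0509). *Junb* lost its call without WT replicate 1, 2 or 3 or C2-/- replicate 2, and *Ier2* without WT replicate 1 or 3 or C2-/- replicate 2. GC correction gave 1 member (*Jun*, higher), 2509 genes overall (20.6%) and 25 related-list genes, beside 5528 and 58. WT replicate 4 against C2-/- gave 0 members, 554 genes and 10 related genes, and the lone sample is assumed to vary like the C2-/- group. Chosen after seeing the data, GC correction without WT replicate 3 gave 1, 1296 and 12, and GC correction with WT replicate 4 against C2-/- gave 0, 20 and 0. The cause was not tested.

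Departures of same-numbered libraries had correlations of -0.0441, -0.0213 and -0.0543 over genes, so no pairing by number was seen over genes in general. These correlations do not decide it for the members, whose pairing was not tested. Without WT replicate 4, a replicate block took the SE of *Egr1* from 0.967 to 0.521 and of *Fos* from 0.878 to 0.533. The SE also fell for *Junb*, *Btg2* and *Apold1*, but not for *Jun*, *Atf3*, *Ier2* or *Klf4*. With a replicate block, which drops WT replicate 4, 3 members passed (*Egr1* added, -2.50), with 5929 genes and 62 related genes, and with block and GC correction 1 member, 2933 genes and 32 related genes.

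Signs turned as follows. *Fos* was 0.45 with quantile normalization, 0.0935 with median centring, 0.0567 with 2 reads added, 0.43 with GC correction, 1.91 with WT replicate 4 alone, 1.08 with GC correction without WT replicate 3 and 2.26 with GC correction and WT replicate 4 alone, and -0.89 to 0.71 when 1 library was left out. *Apold1* was -0.35 with weights, -0.0029 with voom, -0.0779 with GC correction, -0.43 with the block and -0.62 with block and GC correction, and -0.65 to 0.61 when 1 library was left out. *Jun* was 0.87 with GC correction, 0.998 with the block added and 0.81 without WT replicate 3, and *Klf4* was 0.60, 0.596 and 0.58. *Btg2* was 0.17 with WT replicate 4 alone and 0.13 with GC correction without WT replicate 3, where *Egr1* was 0.17, and -0.61 to 0.00849 when 1 library was left out. With GC correction and WT replicate 4 alone, *Jun*, *Junb*, *Egr1*, *Atf3*, *Ier2*, *Btg2* and *Klf4* were 0.49, 0.0433, 0.72, 0.29, 0.56, 0.23 and 0.61.

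The planned count-model fits were not run, and voom was the only model of the recovered reads. *Junb*, *Atf3*, *Ier2*, *Fos* and *Apold1* rest on 0 to 14 reads in most C2-/- libraries, and depth differs with genotype, so depth and genotype cannot be told apart for them. WT replicate 4, the WT library of like depth, was also the lowest WT library in each of these 5 genes. Pooled ratios without WT replicate 3 were added after seeing the data.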

Other observations

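Marker sums of other cell types were set beside the groups as values only. The counts of markers past the threshold stand beside 20.2% higher and 25.0% lower over all genes, and beside 12.3% and 8.32% after GC correction. Fibroblast markers summed to 875 to 997 CPM in WT and 1695 to 2000 CPM in C2-/-, and 5 of 7 were higher and 1 lower. Satellite cell markers summed to 70.1 to 84.0 CPM in WT and 44.7 to 63.1 CPM in C2-/- (2 of 6 higher, 1 lower), with *Pax7* at 0 reads in a library. Macrophage markers summed to 61.4 to 86.2 and 69.1 to 110 CPM (2 of 9 higher, 2 lower), with *C1qa* and *C1qc* at 0 reads in a library. Smooth muscle and pericyte markers summed to 267 to 393 and 255 to 449 CPM (2 of 7 lower), and Schwann cell markers to 54.9 to 124 and 64.0 to 95.5 CPM (1 of 5 lower). Adipocyte markers, 3 of 5 in the table, summed to 0.33 to 8.65 and 3.10 to 11.6 CPM, with none past the threshold. *Alas2*, the only erythroid marker in the table, stood at 4.10 to 5.15 and 1.03 to 2.06 CPM and was lower in C2-/-. Of the 10 fast muscle fibre markers 6 were lower, with a median log2 change of -0.97. After GC correction 1 was higher and 2 lower, with a median of 0.05. The same correction gave 3 higher and 0 lower for fibroblast markers, 1 higher and 0 lower each for macrophage, smooth muscle and adipocyte markers, and none past the threshold for satellite cell, erythroid and Schwann cell markers. The 5 neutrophil markers were not analysed here. The part of these cell types in the values of the immediate-early genes was not tested.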
